A study of Mus musculus with 38 samples.

Results

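Cardiomyocytes of mice that received empagliflozin (EMPA) before acute myocardial infarction (AMI) were compared with cardiomyocytes of untreated infarcted mice. The rule took the cardiomyocyte libraries of EMPA–Pre-AMI (n = 4) and Control-AMI (n = 5), which are 9 of the 38 libraries in the series, and all genes of the table. All mice were male C57BL/6. EMPA was given orally at 10 mg/kg/d for 6 weeks, and Control-AMI mice received its vehicle, 5% DMSO in saline, for the same 6 weeks. Both groups then underwent 30 min of ischemia by ligation of the left anterior descending artery and 2 h of reperfusion. Sham mice (4 cardiomyocyte libraries) received vehicle and no ischemia. They are shown for reference, and their libraries are part of the fit from which the calls came. Each library was made from 2 pooled hearts. The tissue below the suture was digested with collagenase and the cardiomyocytes were taken as the pellet of a slow spin, without sorting, so other heart cells could remain in it. In such bulk samples, fewer cells of a type and less RNA per cell cannot be told apart.

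EMPA inhibits the sodium-glucose cotransporter SGLT2, which takes up glucose in the kidney, and it raises ketone bodies in blood. The heart makes most of its ATP in mitochondria, mainly from fatty acids, through the respiratory chain, whose subunits are encoded in the nucleus and, for a small part, in mitochondrial DNA. Ischemia stops this respiration, and reperfusion brings oxygen back together with a burst of reactive oxygen species and calcium overload. Stress pathways that respond within hours include hypoxia factors, the p53 pathway, the glucocorticoid receptor and the integrated stress response, and several of them raise Ddit4 (also called REDD1), an inhibitor of the growth kinase complex TORC1. The comparison asks which of these programs differed at early reperfusion after EMPA pretreatment.

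Several EMPA–Pre-AMI libraries stood apart before any gene was tested. Total counts ranged from 2031716 to 4509284 over the 13 cardiomyocyte libraries. EMPA–Pre-AMI libraries 2 and 3 lay at 93.6 and 42.8 on the first principal component (37.5% of the variance), whereas all Sham and Control-AMI libraries lay between -31.6 and -6.92. Genes with at least 1 count numbered 12427, 11044, 12535 and 13159 in EMPA–Pre-AMI libraries 1 to 4 and 13018 to 13686 in Control-AMI. The median transcript length of the counts outside mitochondria was 2610, 1998, 2190 and 2703 bases in the EMPA–Pre-AMI libraries and 2703 to 2854 in Control-AMI. By the sample numbers in the labels, EMPA–Pre-AMI 4 and all Sham and Control-AMI libraries had positions in 1 run of numbers and EMPA–Pre-AMI 1, 2 and 3 in 2 other runs. The labels name no batch, and by the study's methods all libraries were prepared and sequenced together, so what these runs of numbers mark is not known. An alternative without EMPA–Pre-AMI 2 and 3, added after the data were seen, is given for the counts over all genes, for Ddit4 and Sik2 and for lists whose median it moved by over 1.5 times among the mitochondrial, antioxidant, proteasome, kinase, chaperone and blood cell lists. Medians of other lists moved too, from 0.44 to 0.26 for glucocorticoid-responsive genes, -0.28 to -0.11 for the integrated stress response and -0.37 to -0.20 for endothelial markers. No gene was called under this alternative.

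The labelled cell type held in every library. The 10 cardiomyocyte markers summed to 25000 to 53300 CPM (counts scaled by the library's total and its TMM factor) in Control-AMI and 37600 to 53100 in EMPA–Pre-AMI. The TMM factor was 0.9605, 0.6738, 0.9336 and 0.9338 in EMPA–Pre-AMI 1 to 4 and 0.9214 to 1.385 in Control-AMI. A lower factor raises all CPM of its library, so those of EMPA–Pre-AMI 2 were raised most. None of the 10 was at 0, 1 (Actc1) was called higher and the median log2 fold change was 0.22. Markers of other cells were present too. The 14 fibroblast markers summed to 1350 to 3430 CPM in Control-AMI and to 652, 2650, 388 and 1880 in EMPA–Pre-AMI 1 to 4, and 12 endothelial markers to 806 to 1440 and 634 to 1580.

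Across 9167 genes tested with edgeR's quasi-likelihood test, 2 genes (0.0218%) differed between EMPA–Pre-AMI and Control-AMI at a Benjamini-Hochberg adjusted p (FDR) under 0.05. These were Ddit4, which rose, and Sik2, which fell. At the wider threshold of FDR under 0.1, also used in the study for this population, 1078 genes (11.8%) differed, of which 532 (5.8%) were higher and 546 (5.96%) lower with EMPA. These are the called genes below. The shares over all genes, 5.8% higher and 5.96% lower, are the background for the counts in each list. Values of the 5 Control-AMI and 4 EMPA–Pre-AMI libraries did not overlap for 547 genes (5.97%), and 413 of these were among the called genes. The genes called higher included 45 nuclear genes of the respiratory chain and ATP synthase and 26 of the mitochondrial ribosome, and nearly all genes called lower had a higher Sham level in fibroblasts or endothelial cells (ECs) than in cardiomyocytes. Without EMPA–Pre-AMI 2 and 3, 0 of 9756 genes were called by edgeR and 858 had an unadjusted p under 0.05. Leaving out EMPA–Pre-AMI 3 or Control-AMI 5 alone left 2 called genes, leaving out Control-AMI 4 left 119, Control-AMI 2 left 452 and EMPA–Pre-AMI 2 left 404, and without EMPA–Pre-AMI 4 the count was 2426.

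Ddit4 (ENSMUSG00000020108, GRCm39 chr10:59785491-59788492, minus strand) was at 61.7 to 75.3 CPM in the 5 Control-AMI libraries and at 167, 186, 164 and 110 CPM in the EMPA–Pre-AMI libraries. Every EMPA–Pre-AMI library was above every Control-AMI library, and every Control-AMI library was above the Sham libraries, which were at 19.4 to 29.6 CPM. The mean was 157 ± 32.7 CPM (SD, n = 4) with EMPA against 68.0 ± 6.02 (n = 5), a log2 fold change of 1.20 (SE 0.18, FDR = 0.0193). Against Sham, Ddit4 was higher by 1.47 on the log2 scale in Control-AMI (FDR = 0.00146) and by 2.67 in EMPA–Pre-AMI (FDR = 4.45e-07). Without EMPA–Pre-AMI 2 and 3 the fold change was 1.05 with an FDR of 0.181, and with any single library left out it stayed between 1.13 and 1.34 with an FDR of at most 0.0765. Ddit4 is also a called member of the lists of p53 targets, glucocorticoid-responsive genes, hypoxia-responsive genes and the integrated stress response, which are described further on.

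Sik2 (ENSMUSG00000037112, chr9:50800947-50920383, minus strand) encodes a salt-inducible kinase of the AMPK family that holds the CREB coactivators (CRTC proteins) and class IIa histone deacetylases in the cytosol. It was at 5.91 to 8.33 CPM in Control-AMI, at 4.61 to 7.87 in Sham and at 0, 0.605, 1.41 and 1.41 in EMPA–Pre-AMI. The EMPA–Pre-AMI values rest on 0, 1, 5 and 4 counts, against 18 to 25 counts in each Control-AMI library. The fitted log2 fold change was -2.77 (SE 0.45, FDR = 0.0193) and -2.99 without EMPA–Pre-AMI 2 and 3 (FDR = 0.181). In Sham libraries of the other populations Sik2 was higher than in cardiomyocytes, at 44.9 CPM of counts outside mitochondria in ECs and 37.5 in fibroblasts against 15.9.

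**Figure D1:**
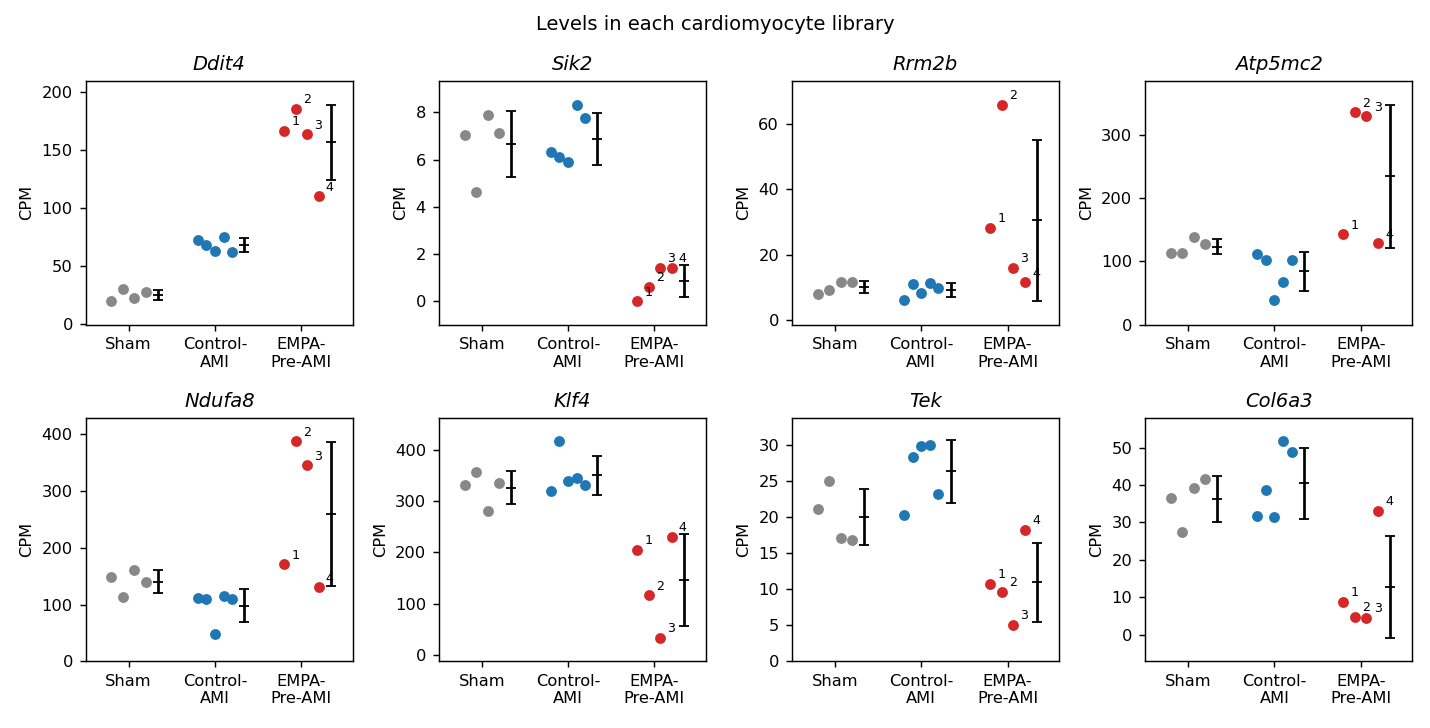
CPM of 8 genes in each cardiomyocyte library (points, EMPA–Pre-AMI libraries numbered), with the group mean and SD as the bar to the right of each group. Ddit4 is higher and Sik2 lower in all 4 EMPA–Pre-AMI libraries, Atp5mc2 and Ndufa8 are highest in libraries 2 and 3, and Col6a3 in EMPA–Pre-AMI library 4 is at 33.1 CPM, within the range of Control-AMI.

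The other salt-inducible kinases had small differences. Sik1 was at 6.13 to 15.3 CPM in Control-AMI and 4.93 to 14.9 in EMPA–Pre-AMI (log2 fold change 0.03, SE 0.37, FDR = 0.969), and Sik3 had a log2 fold change of 0.32 (SE 0.30, FDR = 0.531). Of the 30 tested genes of energy and nutrient kinase pathways, 3 were called higher and 3 lower, against 5.8% and 5.96% of all genes. Their median was 0.20, and 0.00 without EMPA–Pre-AMI 2 and 3. The higher ones besides Ddit4 were Ulk1, the kinase that starts autophagy (log2 fold change 1.03), and Eif4ebp1, a translation repressor controlled by TORC1 (0.70). The lower ones besides Sik2 were Crtc3 (-1.07) and Hdac4 (-0.71), both encoding proteins that salt-inducible kinases phosphorylate. In Sham, Crtc3 was at 178 CPM outside mitochondria in fibroblasts and 38.3 in cardiomyocytes. Hdac4 was at 17.3 to 24.7 CPM in Control-AMI and 7.26 to 16.5 with EMPA.

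The promoters of both genes at FDR under 0.05 are shown with that of Atp5mc2, the ATP synthase gene with the largest fold change, as the 250 bases before the start of the Ensembl canonical transcript in GRCm39, on the coding strand. Capitals mark matches, on either strand, to GCATGCGC (core of the NRF-1 site), CCGGAAG (ETS), CACGTG (E box), ACGTG (core of the hypoxia response element, also contained in CACGTG), TGACGTCA (cyclic AMP response element) or its part TGACG.
Ddit4, chr10:59787663-59787912, minus strand: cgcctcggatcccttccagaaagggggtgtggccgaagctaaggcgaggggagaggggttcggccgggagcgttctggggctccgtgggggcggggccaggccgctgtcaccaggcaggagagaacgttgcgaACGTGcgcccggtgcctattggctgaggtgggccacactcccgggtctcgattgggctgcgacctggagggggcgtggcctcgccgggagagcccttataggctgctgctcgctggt
Sik2, chr9:50920384-50920633, minus strand: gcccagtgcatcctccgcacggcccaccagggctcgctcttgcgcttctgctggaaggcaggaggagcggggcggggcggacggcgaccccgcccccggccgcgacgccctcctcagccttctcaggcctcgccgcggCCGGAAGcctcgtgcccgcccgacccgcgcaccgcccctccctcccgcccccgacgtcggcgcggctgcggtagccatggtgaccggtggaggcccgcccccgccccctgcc
Atp5mc2, chr15:102579563-102579812, minus strand: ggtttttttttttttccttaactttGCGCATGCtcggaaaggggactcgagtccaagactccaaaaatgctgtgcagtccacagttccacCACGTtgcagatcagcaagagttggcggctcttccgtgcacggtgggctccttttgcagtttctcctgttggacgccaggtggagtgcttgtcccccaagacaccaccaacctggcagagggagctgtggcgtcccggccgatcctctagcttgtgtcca

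The Ddit4 window held ACGTG, which begins 117 bases before the start and occurs in 21.7% of the 9156 windows of tested genes. CCGGAAG begins 112 bases before the start of Sik2 and occurs in 10.0% of windows. GCATGCGC begins 225 bases before the start of Atp5mc2 and occurs in 3.45% of windows of all tested genes, in 5 of 83 windows (6.02%) for the respiratory chain with ATP synthase and in 3 of 78 (3.85%) for the mitochondrial ribosome. These matches are a description of the letters in the windows.

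Many nuclear genes of the respiratory chain and ATP synthase were called higher. Of 83 tested, 45 were called higher, 38 were not called and 0 were lower, against 5.8% of all genes called higher. The median log2 fold change was 0.72 against -0.01 over all genes, and 82 had fold changes above 0. Complex I (NADH dehydrogenase) had 18 of 37 called higher, complex III (cytochrome bc1) 7 of 9, complex IV (cytochrome c oxidase) 8 of 15 and ATP synthase 12 of 18, whereas 0 of the 4 complex II genes were called (median log2 fold change 0.59, and 0.43 without EMPA–Pre-AMI 2 and 3). The values of 11 of the 83 did not overlap between the groups, against 5.97% of all genes. These increases were not even over the libraries. Per library, the median of the 83 genes relative to the Control-AMI mean was 0.23, 1.19, 0.95 and 0.27 (log2) in EMPA–Pre-AMI 1 to 4, -0.15 to 0.21 in Control-AMI and 0.12 to 0.37 in Sham. Libraries 2 and 3 thus lay above all other libraries, while 1 and 4 lay within the Sham range. In libraries 2 and 3, 71 and 76 of the 83 genes were above every Control-AMI library, and in libraries 1 and 4, 25 and 27. Without EMPA–Pre-AMI 2 and 3 the median was 0.25, 76 of 83 were above 0 and none was called. With a term for the run of sample numbers, the medians of complexes I to IV and ATP synthase were 0.21 to 0.26. In that fit EMPA–Pre-AMI 4 alone is compared with Control-AMI, as no Sham or Control-AMI library shares the runs of EMPA–Pre-AMI 1, 2 and 3. With limma voom and library weights, an alternative test, 0 of the 83 were called.

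Atp5mc2, which encodes the ring subunit c of ATP synthase, was at 38.4 to 111 CPM in Control-AMI and at 143, 336, 329 and 129 in EMPA–Pre-AMI. The groups did not overlap, although libraries 1 and 4 were close to the highest Sham value of 138 (log2 fold change 1.47, SE 0.31, FDR = 0.0525, and 0.71 without libraries 2 and 3). Ndufa8, an accessory subunit of complex I, was at 47.6 to 115 CPM in Control-AMI and at 171, 388, 345 and 131 with EMPA (log2 fold change 1.39, SE 0.29, FDR = 0.0525). Its lowest Control-AMI value belongs to library 3, and the other 4 Control-AMI libraries were at 109 to 115. Cyc1, the cytochrome c1 of complex III, was at 96.2 to 142 CPM in Control-AMI, 151 to 172 in Sham and 162, 508, 315 and 170 with EMPA (log2 fold change 1.22, SE 0.26, FDR = 0.0525). Cox8a, a small subunit of complex IV, was at 102 to 125 CPM and at 148, 300, 201 and 140, again without overlap (log2 fold change 0.79, SE 0.20, FDR = 0.0533).

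The 13 proteins encoded in mitochondrial DNA all had positive fold changes, with a median of 0.64. The median was 0.24 without EMPA–Pre-AMI 2, alone or with library 3, and 0.16 with length trends removed. It was -0.01 with a term for the run of sample numbers and 0.01 with only the run of EMPA–Pre-AMI 4. In both fits that library stands alone for its group. Of the 13 genes, mt-Nd4l and mt-Co1 were called higher (both 0.94). mt-Co1, the catalytic core of complex IV, was at 10300 to 16200 CPM in Control-AMI and at 19900, 50200, 18600 and 13300 with EMPA, so that library 2 was far above the other 3. As a share of all counts, mitochondrial genes took 55.5% ± 7.38 (SD, n = 5) in Control-AMI and 59.9% ± 4.37 (n = 4) in EMPA–Pre-AMI. This difference of 4.47 percentage points was within the spread of the libraries (exact permutation test, two-sided, p = 0.349, smallest possible p 0.0159). This difference in the mitochondrially encoded share of counts was 2.25 points without Control-AMI 3, 2.69 without Control-AMI 4 and 2.44 without EMPA–Pre-AMI 2.

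Genes that build and feed the mitochondrion went the same way. Of 78 mitochondrial ribosome genes 26 were called higher and 0 lower (median log2 fold change 0.51, and 0.22 without EMPA–Pre-AMI 2 and 3), among them Mrpl27 (1.32), Mrps14 (1.23) and Mrps26 (1.07). Of 25 genes of protein import 7 were called higher and 0 lower (median 0.48, and 0.17 without EMPA–Pre-AMI 2 and 3). Tomm7 and Tomm5, small subunits of the translocase of the outer membrane, had the largest increases. Tomm7 was at 21.7 to 58.5 CPM in Control-AMI and at 74.1, 282, 145 and 64.7 with EMPA (log2 fold change 1.49, SE 0.37, FDR = 0.0533). Tomm5 was at 11.2 to 21.6 and at 27.3, 105, 54.3 and 22.9 (1.48, SE 0.34, FDR = 0.0525). For both, the 4 EMPA–Pre-AMI values were above all Control-AMI values, but library 4 lay inside the Sham ranges of 57.7 to 71.8 CPM for Tomm7 and 20.4 to 26.2 for Tomm5. Cytosolic ribosome genes served as a comparison list of short abundant transcripts. Of 80, 8 were called higher and 0 lower, against 5.8% and 5.96% of all genes. Their median of 0.28 became 0.00 without EMPA–Pre-AMI 2 and 3.

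Pyruvate oxidation and the citrate cycle had 11 of 27 genes called higher and 0 lower (median 0.47, and 0.35 without EMPA–Pre-AMI 2 and 3). Pdhb, the E1 beta subunit of pyruvate dehydrogenase, was at 157 to 186 CPM in Control-AMI and at 315, 300, 367 and 220 with EMPA (log2 fold change 0.82, SE 0.18, FDR = 0.0525). Here all 4 EMPA–Pre-AMI libraries, and not only libraries 2 and 3, lay above the highest Sham value of 216. Other members called higher were Got1 (0.87), Mpc1, the mitochondrial pyruvate carrier (1.11), and Dlat (0.73). Pdk4, the kinase that inhibits pyruvate dehydrogenase in fasting, was at 43.9 to 96.9 CPM in Control-AMI and at 26.0 to 128 with EMPA (log2 fold change 0.06, SE 0.38, FDR = 0.938), both above the 7.87 to 18.0 CPM of Sham.

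Of 34 genes of fatty acid uptake and oxidation 6 were called higher and 0 lower (median 0.31). They included Hadh (0.91), Acadvl (0.75) and Cpt2, the inner membrane carnitine palmitoyltransferase (0.75), and for Cpt2 all 4 EMPA–Pre-AMI values lay above all Control-AMI values. Glycolysis had 5 of 18 called higher and 0 lower (median 0.32). Pgk1, an ATP-forming enzyme of glycolysis, was at 105, 114, 125 and 71.4 CPM with EMPA, and its highest Control-AMI value was 68.3 (log2 fold change 0.75, SE 0.18, FDR = 0.0525).

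Ketone body use had 1 of 6 genes called. Bdh1, which oxidizes beta-hydroxybutyrate, was at 20.9, 16.2, 25.9, 30.0 and 20.3 CPM in Control-AMI, at 22.6 to 45.8 in Sham and at 28.8, 43.6, 71.6 and 42.2 with EMPA. The groups overlapped at 1 library each, and the log2 fold change was 1.05 (SE 0.26, FDR = 0.0525), or 0.68 without EMPA–Pre-AMI 2 and 3. Oxct1, the next enzyme in ketone oxidation, was at 366 to 1090 CPM in Control-AMI and 575 to 1060 with EMPA (log2 fold change 0.27, SE 0.25, FDR = 0.514).

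The targets of EMPA were looked for directly. Slc5a2 (SGLT2) and its relative Slc5a1 (SGLT1) were at or near the floor, with 0 counts of Slc5a2 in every library and at most 1 count of Slc5a1. In the 9 libraries a count of 0 allows up to 3 counts, or 0.755 to 1.48 CPM before the TMM factor. The insulin-regulated glucose carrier Slc2a4 was at 50.3 to 79.5 CPM in Control-AMI and 52.6 to 118 with EMPA, with overlapping groups (log2 fold change 0.32, SE 0.22, FDR = 0.367). Slc2a1, the basal glucose carrier, was at 0.985 to 4.33 CPM and too low to be tested.

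**Figure D2:**
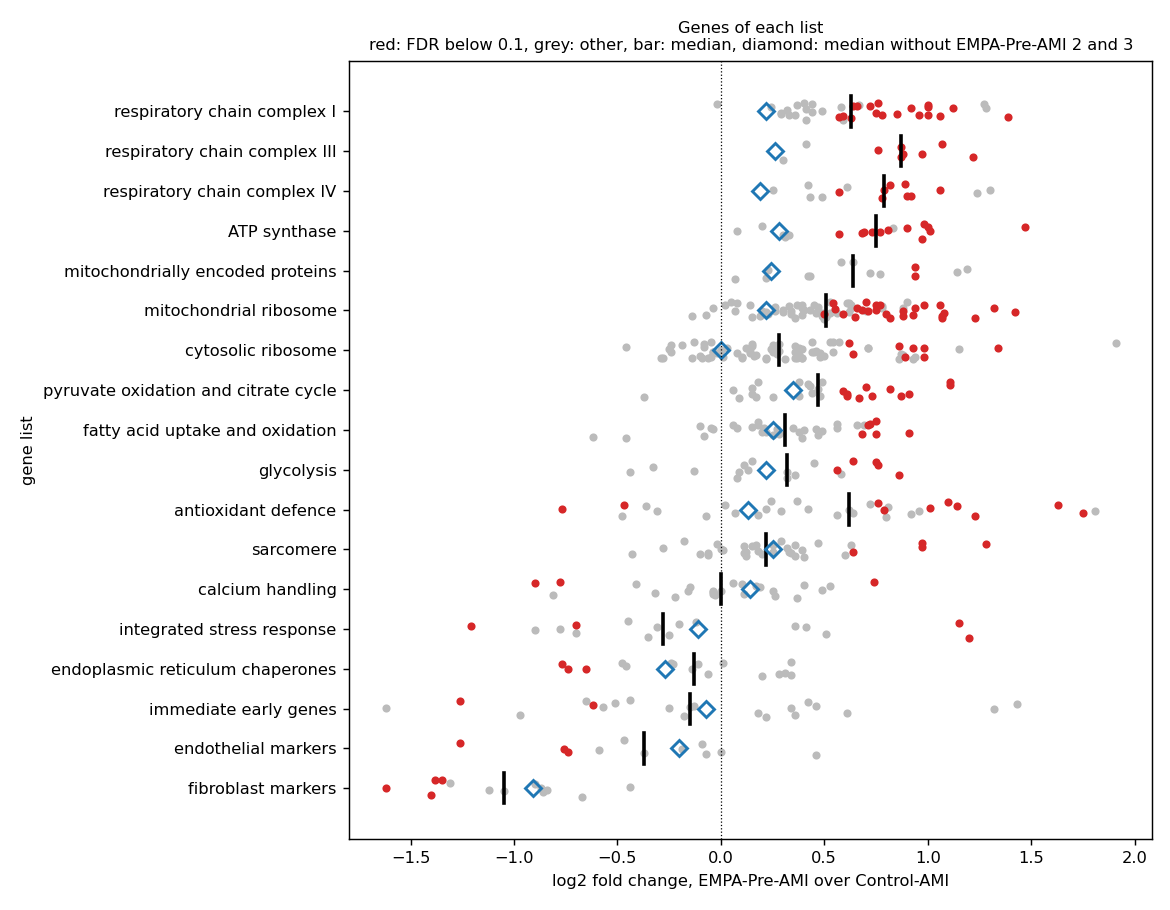
Log2 fold change (EMPA–Pre-AMI over Control-AMI) of each tested gene in 18 lists, red where the FDR was under 0.1, with the list's median (bar) and its median without EMPA–Pre-AMI 2 and 3 (diamond). The medians of complexes I, III and IV and of ATP synthase, 0.63 to 0.87, move to 0.19 to 0.28 without the 2 libraries, and the fibroblast marker median moves from -1.05 to -0.91.

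Contractile and calcium genes changed in few members. Of 34 sarcomere genes 4 were called higher and 0 lower (median 0.22), against 5.8% and 5.96% of all genes. The 4 were Cryab, a chaperone of the Z-disc, the actins Acta1 and Actc1, and Myoz2, a calcineurin-binding Z-disc protein. Cryab was at 370 to 694 CPM in Control-AMI and 850, 1550, 1430 and 770 with EMPA (log2 fold change 0.97, SE 0.23, FDR = 0.0525). Of 25 calcium handling genes Pln, the inhibitor of the sarcoplasmic calcium pump, was called higher (0.74), and Atp2b4 (-0.90) and Itpr2 (-0.78) were called lower. Both lower genes had higher Sham levels in ECs than in cardiomyocytes, for Atp2b4 420 against 102 CPM outside mitochondria. Among genes that were not called, Camk2d, a calcium-dependent kinase, stood at 0.17 (SE 0.20, FDR = 0.622). The myosin heavy chains Myh6 and Myh7 stood at 0.00 (SE 0.27) and 0.60 (SE 0.27, FDR = 0.177).

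The natriuretic peptide genes, which rise with wall stress, were variable among libraries. Nppa was at 132 to 757 CPM in Control-AMI and 152 to 498 with EMPA (log2 fold change 0.13, SE 0.49, FDR = 0.896), and Nppb at 1.29 to 5.33 and 2.55 to 5.15 (0.24, SE 0.40, FDR = 0.739). Of the 10 genes of that list only Acta1 was called (0.97).

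Stress pathways differed member by member. Of 16 p53 targets 4 were called higher, namely Ddit4, Rrm2b, Ccng1 and Trp53inp2, and Zmat3 was called lower (-1.71). In Sham, Zmat3 was at 31.0 CPM outside mitochondria in fibroblasts and 8.8 in cardiomyocytes. Rrm2b, the p53-inducible small subunit of ribonucleotide reductase that supplies DNA precursors to mitochondria, was at 6.31 to 11.3 CPM in Control-AMI, 7.88 to 11.7 in Sham and 28.3, 65.9, 16.1 and 11.6 with EMPA (log2 fold change 1.67, SE 0.38, FDR = 0.0525). Library 2 was highest and library 4 lay at the upper edge of both other groups. Cdkn1a, the best known p53 target, rose after AMI from 50.3 to 99.5 CPM in Sham to 147 to 275 in Control-AMI (log2 fold change 1.63, FDR = 0.00634) and was at 161 to 282 with EMPA (-0.05, SE 0.24, FDR = 0.918).

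Of 17 glucocorticoid-responsive genes 3 were called higher, Ddit4, Tsc22d3 (0.91) and Glul (0.50), and of 20 hypoxia-responsive genes 4, Ddit4, Pgk1, Egln1 (0.89) and Hk2 (0.64). No member of either list was called lower. In the integrated stress response, which is controlled by the transcription factor Atf4, 2 of 16 genes were called in each direction. Over all genes, 5.8% were called higher and 5.96% lower. Atf5 was at 19.8 to 33.2 CPM in Control-AMI and 13.9, 9.07, 6.22 and 17.9 with EMPA (log2 fold change -1.21, SE 0.28, FDR = 0.0525). Atf4 had a log2 fold change of -0.70 (FDR = 0.068), whereas Ddit4 and Chac1 (1.15), a glutathione-degrading enzyme, were higher. Chac1 was low, at 1.86 CPM outside mitochondria in Sham cardiomyocytes. Its fold change was -0.68 with the sample-sheet term, where EMPA–Pre-AMI 4 stands alone for its group. Of 16 chaperones of the endoplasmic reticulum 3 were called lower, Calr (-0.74), Dnajc3 (-0.65) and Pdia4 (-0.77), and 0 higher (median -0.13, and -0.27 without EMPA–Pre-AMI 2 and 3). In Sham, Atf4, Atf5 and these 3 were higher in fibroblasts than in cardiomyocytes. For Calr the levels were 1560 against 688 CPM outside mitochondria, and for Atf5 207 against 58.9.

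Of 31 antioxidant genes 8 were called higher and 2 lower (median 0.62, and 0.13 without EMPA–Pre-AMI 2 and 3). Sod2, the mitochondrial superoxide dismutase, was at 37.8 to 155 CPM in Control-AMI and 179, 272, 371 and 170 with EMPA (log2 fold change 1.14, SE 0.31, FDR = 0.0554). Nqo1, a target of the factor encoded by Nfe2l2, was at 5.00 to 9.33 and 13.9, 14.5, 22.6 and 9.50 (1.10, SE 0.27, FDR = 0.0533), while Nfe2l2 itself was called lower (-0.47) together with Gpx3 (-0.77). For Sod2 and Nqo1 the groups did not overlap. The metallothioneins Mt1 and Mt2, which bind zinc and copper, were higher after AMI than in Sham in every library, and the differences with EMPA, 0.62 for Mt1 (SE 0.23, FDR = 0.108) and 0.80 for Mt2 (SE 0.29, FDR = 0.103), did not pass the threshold.

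Of 21 immediate early genes, transcription factors induced within minutes of stress, none was called higher and 2 were called lower. Over all genes, 5.96% were called lower. Klf4 was at 320 to 416 CPM in Control-AMI, 280 to 357 in Sham and 205, 116, 33.4 and 230 with EMPA, with no overlap (log2 fold change -1.26, SE 0.36, FDR = 0.0589, and -0.67 without EMPA–Pre-AMI 2 and 3). Egr1 had a log2 fold change of -0.62 (FDR = 0.0883). In Sham, Klf4 was at 783 CPM outside mitochondria in cardiomyocytes, 2640 in ECs and 1750 in fibroblasts. Egr1 was at 521, 1480 and 2010 in the same order. Of 11 cytokine and chemokine genes only Il6st, the shared receptor chain of interleukin-6 cytokines, was called (-0.59). Il6st was at 407 CPM outside mitochondria in Sham ECs and 123 in Sham cardiomyocytes. The regulators of mitochondrial biogenesis gave 0 calls among 13, with Ppargc1a at 0.21 (SE 0.26, FDR = 0.643) and Tfam at 0.48 (SE 0.23, FDR = 0.186). The median of that list was 0.25, and 0.14 without EMPA–Pre-AMI 2 and 3.

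**Figure D3:**
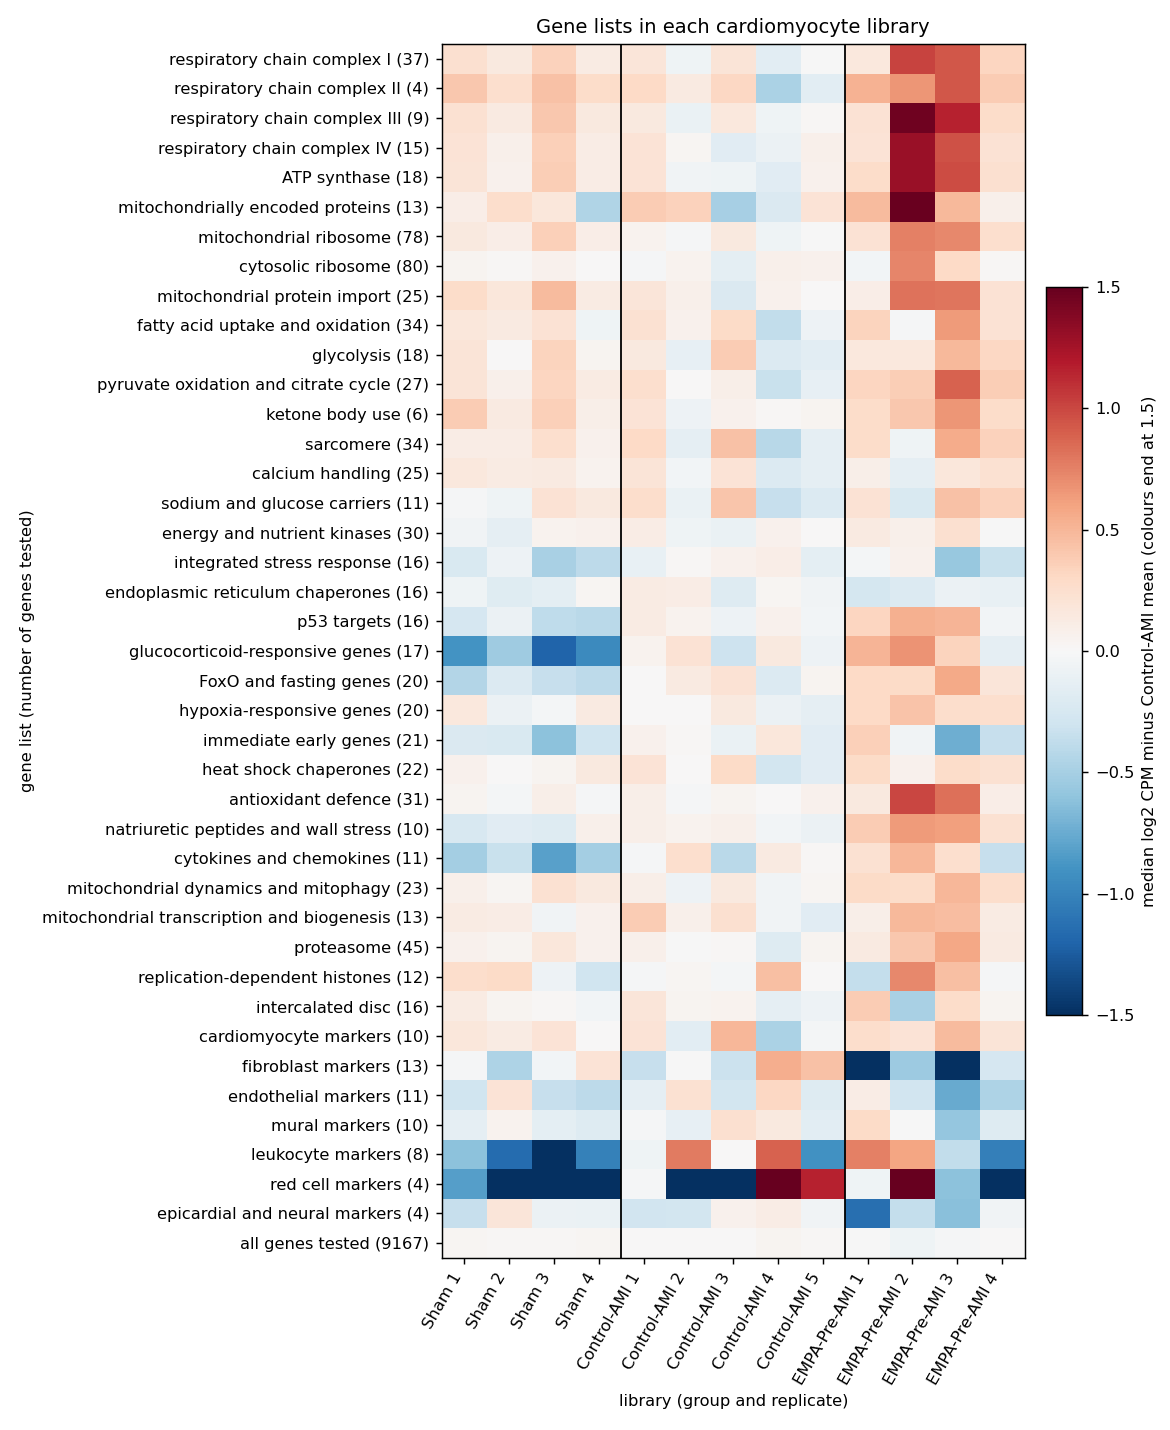
Median log2 CPM of each gene list, relative to each gene's Control-AMI mean, in the 13 cardiomyocyte libraries (columns, grouped as Sham, Control-AMI and EMPA–Pre-AMI). Red is higher and blue lower. The nuclear respiratory chain lists are highest in EMPA–Pre-AMI 2 and 3, the fibroblast markers are lowest in EMPA–Pre-AMI 1 and 3, and the glucocorticoid-responsive genes are lower in all Sham libraries.

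Few of the genes called lower had their highest level in cardiomyocytes. By the Sham libraries, which are not part of the contrast, 2 of 546 genes called lower (0.366%) had their highest level in cardiomyocytes, against 1787 of 8078 genes not called (22.1%) and 349 of 530 genes called higher (65.8%). Levels were compared as CPM of counts outside mitochondria. Of the genes called lower, 273 were highest in ECs and 271 in fibroblasts. The 8 named for the largest decreases were H2ac18, Aff3, Ggt5, Rnf213, Igsf8, Dync2h1, Sema5a and Sulf1, with log2 fold changes of -2.97 to -1.62. All 8 had a higher Sham level in ECs or fibroblasts than in cardiomyocytes, for example Sulf1, an enzyme that edits heparan sulfate, at 264 CPM in fibroblasts and 38.6 in cardiomyocytes, and Rnf213 at 118 in ECs and 20.6. Sulf1 was at 13.4 to 30.3 CPM in the Control-AMI cardiomyocytes and 3.60, 8.47, 3.96 and 10.6 with EMPA (-1.62, SE 0.32, FDR = 0.0525). H2ac18 and H2ac19, neighbouring histone genes with near-identical sequence, moved in opposite directions (-2.97 and 1.35), so that the assignment of reads between them is uncertain.

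The marker lists moved alongside. All 13 tested fibroblast markers had negative fold changes (median -1.05, and -0.91 without EMPA–Pre-AMI 2 and 3), and 4 were called lower, Col6a3 (-1.62), Mfap5 (-1.40), Col3a1 (-1.38) and Col1a1 (-1.35). Col6a3 was at 31.5 to 51.7 CPM in Control-AMI and 8.75, 4.84, 4.53 and 33.1 with EMPA. In EMPA–Pre-AMI 1 and 3 all 13 markers were below every Control-AMI library, in library 2, 5 of 13, and in library 4, 1 of 13. Endothelial markers had a median of -0.37 with 3 of 11 called lower, Tek (-1.26), Tie1 (-0.74) and Egfl7 (-0.76). Mural and leukocyte markers gave 0 calls among 10 and 8 genes, with medians of -0.09 and -0.13 (-0.54 for leukocytes without EMPA–Pre-AMI 2 and 3). Red cell genes gave 0 calls among 4, with a median of 0.80 that turned to -0.98 without EMPA–Pre-AMI 2 and 3, and summed to 112 to 1680 CPM in Control-AMI and 123 to 2660 with EMPA, the highest in library 2. Adipocyte and epicardial and neural markers had 1 and 4 testable genes and gave 0 calls. The part of these cells in the lower calls was not tested. Ddit4 was called higher, and its Sham level was 207 CPM in ECs and 93.6 in fibroblasts against 59.1 in cardiomyocytes.

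Fold changes also went with transcript length. Genes with transcripts of up to 1000 bases had a median log2 fold change of 0.38, those in the middle class of 5 had 0.03 and those over 6000 bases -0.28. Of 471 genes in the shortest class 90 were called higher and 4 lower, and of 1751 in the longest class 22 and 225. Without EMPA–Pre-AMI 2 and 3, the medians of the shortest and longest classes were 0.09 and -0.11. Among genes with transcripts of up to 2000 bases, 34 of 62 genes of the respiratory chain or ATP synthase (54.8%) were called higher, against 231 of 1833 other genes (12.6%). When a smooth trend with transcript length was removed from each library, an alternative added after the data were seen, 22 of those 83 nuclear genes were called higher and 0 lower, with a median of 0.47. These were 7 genes of complex I, 1 of complex II, 6 of complex III, 0 of complex IV and 8 of ATP synthase. The complex IV median moved from 0.79 to 0.35. The count over all genes was then 655, of which 378 were higher. The part of RNA quality in these trends was not tested.

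**Figure D4:**
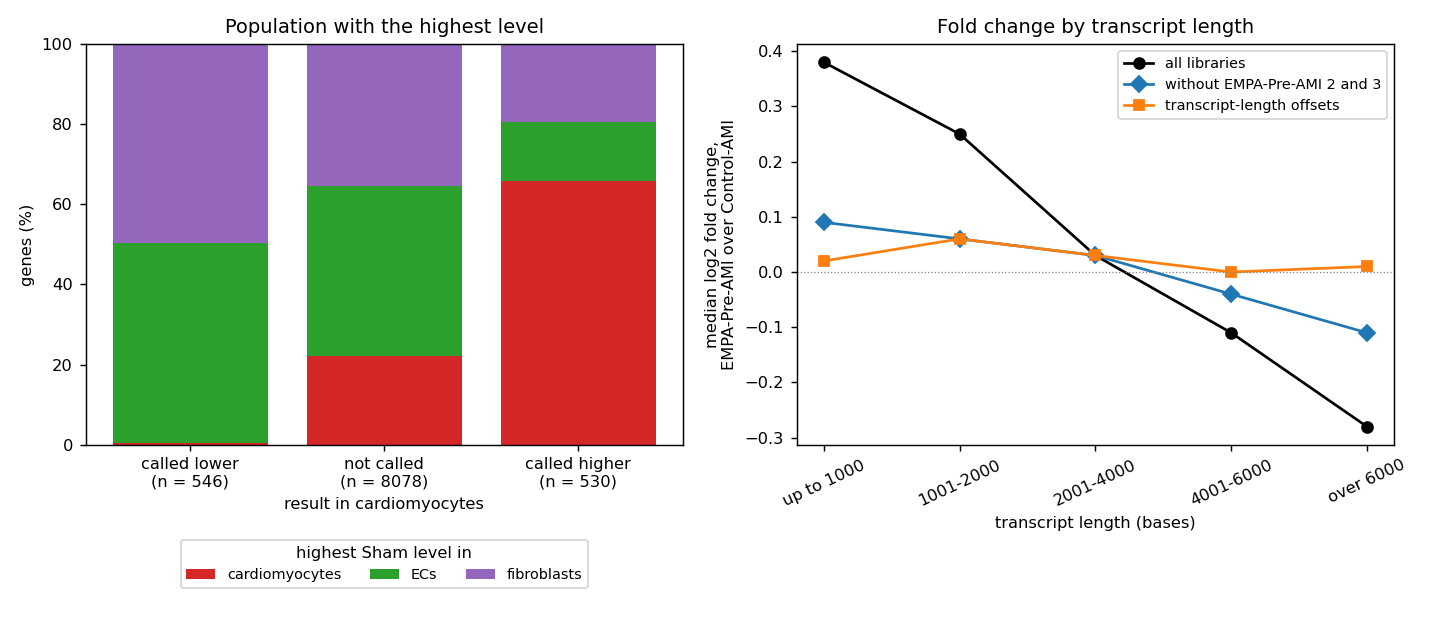
Left, share of genes (%) whose Sham level was highest in cardiomyocytes, ECs or fibroblasts, for genes called lower, not called and called higher. Right, median log2 fold change in 5 classes of transcript length (bases) for all libraries, without EMPA–Pre-AMI 2 and 3, and with length trends removed. Genes called lower were almost all highest in another population, and the medians run from 0.38 to -0.28 with length.

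The 8 genes named for the largest increases with no overlap were Rrm2b, Tomm7, Tomm5, Atp5mc2, Pla2g5, Mid1ip1, Ndufa8 and H2ac19. Pla2g5, a secreted phospholipase, was the member with the clearest cardiomyocyte origin, at 21.4 CPM in Sham cardiomyocytes and 0.138 and 0.727 in ECs and fibroblasts. It was at 5.49 to 10.5 CPM in Control-AMI and 14.4, 33.9, 26.0 and 12.0 with EMPA (log2 fold change 1.41, SE 0.30, FDR = 0.0525). Mid1ip1, a regulator of lipogenesis, was at 5.58 to 14.0 and 20.6, 30.9, 49.8 and 18.3 CPM (1.41, SE 0.29, FDR = 0.0525). Here libraries 1 and 4 also lay above the Sham range of 11.7 to 18.0.

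The remaining lists changed in few members, beside 5.8% of all genes called higher and 5.96% lower. Of 45 proteasome genes 7 were called higher and 0 lower (median 0.35, and 0.13 without EMPA–Pre-AMI 2 and 3), among them Psmb5 (1.08), and of 23 genes of mitochondrial dynamics and mitophagy 4 were higher and 0 lower, Mief2 (1.30), Phb2 (1.26), Chchd10 (0.84) and Micos10 (0.84). Of 20 FoxO and fasting genes 2 were called higher, Ulk1 and Map1lc3b (0.45), of 22 heat shock genes Hspe1 (0.64) and Cryab, of 16 genes of the intercalated disc Gja1, the main gap junction protein of the ventricle (0.57), and of 12 testable histone genes H2ac19 higher and H2ac18 lower. Chchd10, a small protein of mitochondrial cristae, was at 318 to 409 CPM in Control-AMI and 517, 652, 886 and 486 with EMPA, above all Control-AMI and Sham values in each library (log2 fold change 0.84, SE 0.19, FDR = 0.0525).

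The effect of EMPA was then compared between cell populations in 1 model of all libraries. By the study's methods the ECs and fibroblasts were sorted from the part of the digest left above the cardiomyocyte pellet, so populations can share hearts, whereas the model treats all libraries as independent. The effect in cardiomyocytes differed from that in ECs for 125 of 12085 genes (1.03%) at FDR under 0.05, 90 of them more positive and 35 more negative in cardiomyocytes, and for 71 genes with the replicate number as a block. Sik2 was among them, with log2 fold changes of -2.77 in cardiomyocytes and -0.30 in ECs (difference -2.47, FDR = 0.0191), and so was Rnf213 with -1.89 and 0.30 (difference -2.18, FDR = 0.00804). Ddit4 differed by 0.63 (FDR = 0.476). In ECs themselves 12 of 13 fibroblast markers were called lower with a median log2 fold change of -3.05, and the part of this in the 125 differences was not tested. Of the 83 respiratory chain and ATP synthase genes 2 differed from ECs, both more positive in cardiomyocytes, and their median was -0.08 in ECs and -0.12 in fibroblasts. Against fibroblasts 0 of 12085 genes (0%) differed at FDR under 0.05 with edgeR, 1848 had an unadjusted p under 0.05 and DESeq2 gave 131. The differences for Sik2 and Ddit4 against fibroblasts had FDRs of 0.0526 and 0.184. Without EMPA–Pre-AMI 2 and 3, 22 genes differed from ECs and 0 from fibroblasts by edgeR, where 567 had an unadjusted p under 0.05, and without EMPA–Pre-AMI 4 alone the counts were 543 and 641.

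**Figure D5:**
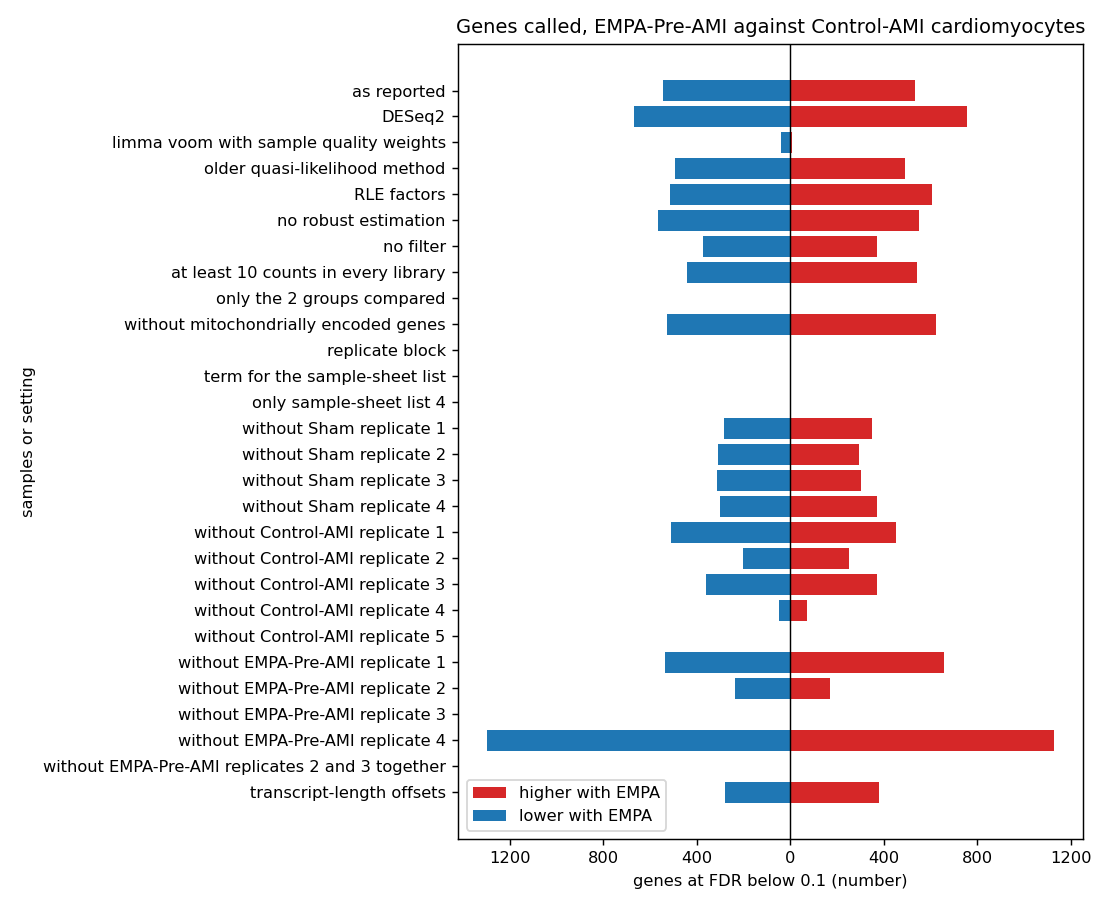
Number of genes at FDR under 0.1, higher (right) or lower (left) with EMPA, as reported and under each alternative set of samples or setting. Counts are 1078 as reported, 2426 without EMPA–Pre-AMI 4 and 47 with library weights. They are 0 without Sham, with the replicate block and without EMPA–Pre-AMI 2 and 3. With the sample-sheet term or only the run of EMPA–Pre-AMI 4, that library stands alone for its group.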

How the data were processed

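RNA of cardiomyocytes was sequenced as 3′ libraries. The authors filtered out low-quality reads with cutadapt 2.8 and quantified the rest against Ensembl transcripts of GRCm39 with Salmon. They deposited estimated counts, not normalized, for 35682 genes. The estimated counts were rounded to whole numbers. Genes, symbols and positions came from a GENCODE annotation of GRCm39 (35407 symbols found). Transcript lengths are those of the Ensembl canonical transcript.

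The 3 cardiomyocyte groups were fitted together with edgeR 4.0.16 in R 4.3.3 (filterByExpr with a minimum count of 10, TMM factors, glmQLFit with robust estimation, glmQLFTest), and p-values were adjusted over all genes tested. Populations were compared by an interaction term in 1 model of all libraries. The mitochondrial share was compared by an exact permutation test. Libraries held 2031716 to 4509284 counts, and floors of 3 counts cover counting error only. The variance between libraries of a group was 5.05 to 70.8 times that of counting, so that precision is set by the spread between libraries. Per the study's methods, libraries of a group came from independent isolations.

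The members, gene lists and tests were chosen with earlier results of these data known. Named genes were all at FDR under 0.05, the 8 with the largest change in each direction among called genes with no overlap and at least 10 CPM in a group, up to 4 per list with the smallest p, and a set list around Ddit4, the salt-inducible kinases, carriers, ketone use and stress. Alternatives were DESeq2 1.42.0, limma 3.58.1 voom with library weights, the older quasi-likelihood method, RLE factors, no robust estimation, other filters, only both groups compared, no mitochondrial genes, a replicate block, a sample-sheet term, only 1 sample-sheet run, and each library left out. After the data were seen, a fit without EMPA–Pre-AMI 2 and 3 and offsets for transcript length were added. Calculations were tested on simulated data. The authors left out 2 preparations a priori for RNA quality or quantity. Some genes of the named set are not reported here.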

Additional observations from a re-analysis of the deposited data

Results flagged for a closer look

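Among 84 groups of 4 or 5 values examined, 7 held a library far from the others by Dixon's criterion, which chance alone meets in about 1 of 20 groups. In Control-AMI library 3, Tomm7 was at 21.7 CPM, Tomm5 at 11.2, Mid1ip1 at 5.58 and Ndufa8 at 47.6, each below the other 4 Control-AMI libraries, and Pdk4 was at 96.9 CPM, above them. In Control-AMI library 4, Sik1 was at 15.3 CPM and Nppa at 757 CPM, above the others. No EMPA–Pre-AMI library met the criterion for these genes or for the library measures, with 4 libraries in the group.

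The effect of EMPA differed between cardiomyocytes and ECs by an interaction term for Sik2 (difference in log2 fold change -2.47, FDR = 0.0191) and Rnf213 (-2.18, FDR = 0.00804).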

How the results depend on the processing

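Counts of genes depended on the samples and on the test, and the causes were not tested. At FDR under 0.05 (2 genes as reported), DESeq2 gave 812, RLE factors 63, no filter 210, a minimum of 10 counts per library 350, leaving out mitochondrial genes 220 and limma voom with library weights 1. At FDR under 0.1 (1078 as reported), the library weights gave 47 and length offsets 655. Of the 47 genes, 8 were higher with EMPA, and 0 of the 78 mitochondrial ribosome genes were among them. In a fit without Sham, with replicate number as a block, or without EMPA–Pre-AMI 2 and 3, edgeR gave 0 genes at either threshold. In these fits 1678, 1934 and 858 genes had an unadjusted p under 0.05. With the sample-sheet run as a term or only the run of EMPA–Pre-AMI 4, that library stands alone for its group. Counts of genes are therefore not given for them. With 1 library left out, the counts ranged from 0 to 1546 at 0.05 and from 2 to 2426 at 0.1. The difference from ECs (125 genes) became 369 with DESeq2, 71 with the replicate block and 22 without EMPA–Pre-AMI 2 and 3, and 56 to 543 with 1 library left out. The difference from fibroblasts (0 genes) became 131 with DESeq2 and 4 with that minimum of 10 counts, and 0 to 641 with 1 library left out.

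Same-numbered Control-AMI and EMPA–Pre-AMI libraries correlated at -0.03, 0.106, 0.023 and -0.064, so that the replicate numbers were not taken as pairs, and the block is given only as an alternative.

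Of 3221 alternative values of 120 named genes, 17 had the opposite sign. With the sample-sheet term and with only the run of EMPA–Pre-AMI 4, where that library stands alone for its group, the log2 fold changes were -0.15 and -0.14 for Rpl35, -0.11 and -0.09 for Rps3, -0.04 and -0.02 for Rpl27, 0.01 and 0.02 for Itpr2, -0.68 and -0.67 for Chac1, -0.05 and -0.03 for Tsc22d3, -0.09 and -0.07 for Micos10 and -0.02 and -0.01 for Gja1. For mt-Co1 the term gave -0.01, and under the term too EMPA–Pre-AMI 4 stands alone for its group. Ddit4 stayed between 0.70 and 1.34 and Sik2 between -3.38 and -2.24 in all alternatives run. The lone library was assumed to vary like the other groups. Low counts, as for Sik2, limit the precision of its fold change.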
